A study of Homo sapiens with 6 samples.

Results

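The MYC, MAX, MXD and MLX network is a family of transcription factors that share a basic helix-loop-helix leucine zipper. Its 10 members measured here, MYC, MAX, MXD1, MXD3, MXD4, MXI1, MNT, MGA, MLX and MLXIP, were taken by gene symbol, and all 10 were found among the 56638 symbols of the count tables. They were read in DLD-1, a colorectal cancer cell line grown in serum-containing medium, at passages 16 to 19 in both groups. In 3 libraries the cells had been transfected with lncSLCC1 siRNA, which targets a long non-coding RNA (RP11-400N13.2 in the tables), and in 3 with control siRNA. Whether the replicates of a group were separate cultures is not said in the labels; the p-values cover the spread among these libraries, and that spread may be technical.

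MYC pairs with MAX, binds the DNA word CACGTG (the E-box) and raises transcription of genes for ribosome building, nucleotide supply and cell growth. The MXD proteins, MXI1 (also called MXD2) and MNT compete for MAX at the same word and bring the SIN3 histone deacetylase complex, so they act as antagonists. MGA joins MAX to a Polycomb complex, PRC1.6, that silences germline genes. MLX is a second hub, which pairs with the glucose-responsive activator MLXIP (MondoA) and with some antagonists. In colorectal tumours MYC transcription is a known output of Wnt signalling.

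Libraries held 12572277 to 15262872 gene reads after lncSLCC1 siRNA and 14873343 to 15568075 after control siRNA. The targeted RNA stood at 2.13 ± 0.479 CPM (counts scaled to the TMM-adjusted library size) in lncSLCC1 siRNA libraries and 7.85 ± 2.30 CPM in control siRNA libraries (SD, n = 3 each; log2 fold change -1.88, edgeR adjusted p = 0.0027). Epithelial markers were present, with EPCAM at 530 to 675 CPM but LGALS4 at only 1.04 to 2.72 CPM. Of the 9, 1, VIL1, was called higher and 0 lower. CDX2 (log2 fold change -0.28, edgeR adjusted p = 0.075) and CDH1 (0.23, 0.0619) separated the groups in opposite directions and did not pass. Of 11 leukocyte, endothelial and fibroblast markers, 7 had too few reads to test, at no more than 0.195 CPM in any library, and the endothelial marker PECAM1 and the fibroblast marker DCN had 0 reads in all 6. The other 4, CD14, VWF, COL1A1 and PDGFRB, lay between 0.427 and 2.21 CPM, and of these PDGFRB was called higher (edgeR adjusted p = 0.0448). The 11 markers summed to 5.88 to 6.23 CPM in lncSLCC1 siRNA libraries and 5.14 to 6.27 CPM in control siRNA libraries; their part in the results was not tested. The control libraries differed more from each other than the lncSLCC1 siRNA libraries did, with a chi-square per gene of 5.46 to 27.98 between control pairs and 1.79 to 1.90 between lncSLCC1 siRNA pairs. Control replicate 1 stood apart most. Across 13624 genes, its difference from the other controls went with GC content (Spearman rho = 0.645) and against transcript length (rho = -0.415), which is a description over genes that are not independent. The same rho values, GC content first, were -0.559 and 0.462 for control replicate 3, and -0.405 and 0.041 for control replicate 2. Each control is set against the others, so these values are linked. For lncSLCC1 siRNA minus control siRNA, rho was -0.224 with GC content and 0.234 with length. Members are therefore given with and without control replicate 1. GC content is given below for MXD4 and MGA, and transcript length for MGA. With offsets for GC content and length, the log2 fold change of MYC was -0.503 and that of MAX -0.191. In the same fit MXD1 was at 0.068, MXD3 at -0.157, MXI1 at -0.051 and MNT at -0.085.

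The promoters of genes on which the results below turn are shown first, from RefSeq windows of assembly GRCh38.p14 that run from 250 bases before to 50 bases after a gene's start. The tables hold windows for 9 of the 10 members, all but MYC. MXD4 is shown as the member that rose and MLX as the hub of the second branch, and both windows hold an E-box. TXNIP and ARRDC4, targets of the MLXIP and MLX pair, are shown for the motifs of that pair. Capitals mark the E-box CACGTG or, in TXNIP, a pair of half-sites, CACGNG and CNCGNG set 5 bases apart, as in the carbohydrate response element. All sequences read in the direction of transcription.
MXD4, chr4:2262060-2262359, minus strand: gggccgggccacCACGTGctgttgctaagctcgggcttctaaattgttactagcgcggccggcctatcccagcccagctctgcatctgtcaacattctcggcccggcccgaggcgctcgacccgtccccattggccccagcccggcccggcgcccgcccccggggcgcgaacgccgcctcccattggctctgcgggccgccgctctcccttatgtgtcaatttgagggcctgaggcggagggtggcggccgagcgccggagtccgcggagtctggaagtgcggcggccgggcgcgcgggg
MLX, chr17:42566850-42567149, plus strand: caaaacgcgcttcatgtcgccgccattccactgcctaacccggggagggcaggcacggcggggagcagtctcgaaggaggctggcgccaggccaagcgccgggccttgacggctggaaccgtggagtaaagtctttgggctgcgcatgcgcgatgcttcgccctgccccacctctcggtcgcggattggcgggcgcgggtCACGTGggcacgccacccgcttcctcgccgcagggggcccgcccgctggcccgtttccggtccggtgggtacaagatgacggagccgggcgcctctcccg
TXNIP, chr1:145996530-145996829, minus strand: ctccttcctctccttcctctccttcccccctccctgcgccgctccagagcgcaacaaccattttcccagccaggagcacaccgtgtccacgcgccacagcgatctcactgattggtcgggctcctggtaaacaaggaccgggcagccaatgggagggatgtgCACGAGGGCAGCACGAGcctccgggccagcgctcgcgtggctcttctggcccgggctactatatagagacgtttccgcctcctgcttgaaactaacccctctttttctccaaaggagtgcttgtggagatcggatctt
ARRDC4, chr15:97960453-97960752, plus strand: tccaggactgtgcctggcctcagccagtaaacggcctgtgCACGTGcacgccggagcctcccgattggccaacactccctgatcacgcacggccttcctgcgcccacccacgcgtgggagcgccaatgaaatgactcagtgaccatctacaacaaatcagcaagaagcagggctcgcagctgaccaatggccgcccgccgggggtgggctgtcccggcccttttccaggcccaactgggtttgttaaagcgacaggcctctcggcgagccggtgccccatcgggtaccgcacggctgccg

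The E-box began 238 bases before the start in MXD4, 50 bases before it in MLX and 210 bases before it in ARRDC4. The half-site pair of TXNIP began 88 bases before the start. Among members, 3 of 9 had an E-box in a window, the third being MNT, at 193 bases before its start. MXI1 had the half-site pair in 1 of its windows, on the opposite strand. Of 5 listed targets of the MLXIP and MLX pair with a window, 4 had an E-box and 1 the half-site pair. The 4 include PFKFB3, which did not pass the test below (log2 fold change -0.02). Counted by gene in the same way, 8.77% of 27305 genes had CACGTG, which reads the same on both strands, and 0.619% had the half-site pair, searched on both strands. By window, the shares were 7.26% and 0.501% of 35116. These matches are letters in a window and do not show binding.

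Among all 10 members, MYC was lower and MXD4 was higher after lncSLCC1 siRNA, and the other 8 did not pass the test. A gene was called where edgeR's quasi-likelihood test gave a Benjamini-Hochberg adjusted p under 0.05 over all 15242 genes tested, and all 10 members had enough reads to be tested. The count was 1 of 10 members higher, against 6.46% of all tested genes, and 1 of 10 lower, against 7.39%. With library totals in place of TMM sizes, 63.9% of called genes were higher, against 46.6% with TMM. The 2 groups did not overlap for 2 members higher (MXD4 and MLXIP) and 2 lower (MYC and MLX), against 19.4% and 19.6% of all tested genes. With 10 members, 1 call or 2 separations in a direction is close to these shares.

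**Figure D1:**
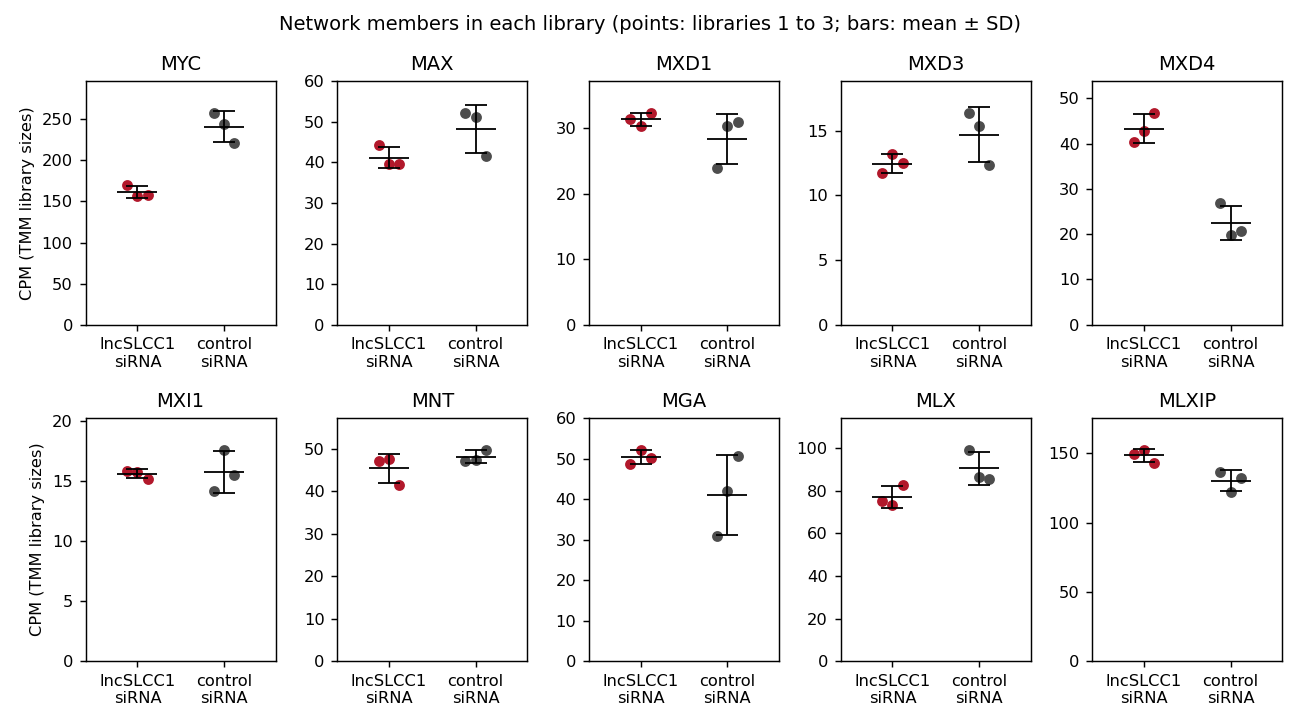
CPM of each of the 10 members in every library, with lncSLCC1 siRNA on the left of each panel and control siRNA on the right; points are libraries and bars are mean ± SD (n = 3 each). MXD4 lay at 40.4 to 46.8 CPM in lncSLCC1 siRNA libraries, above all controls, and MYC at 156.6 to 170.6 CPM, below all controls.

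MYC, the activator of the network, had 170.6, 156.6 and 157.7 CPM in lncSLCC1 siRNA replicates 1, 2 and 3, against 257.9, 244.4 and 221 CPM in control siRNA replicates 1, 2 and 3. Every lncSLCC1 siRNA library lay below every control library. The mean was 161.6 ± 7.78 CPM in lncSLCC1 siRNA libraries and 241 ± 18.7 CPM in control siRNA libraries (SD, n = 3 each), so that 67.0% of the control level was left. On the log2 scale the difference was -0.58 (SE 0.084; 95% interval -0.76 to -0.39; edgeR adjusted p = 0.00306). In these bulk libraries, fewer cells with MYC RNA and less MYC RNA per cell cannot be told apart. On log2 CPM, the two-sided exact permutation p was 0.1, which is the lowest that a 3 against 3 design can reach. Without control replicate 1 the log2 fold change was -0.53 (adjusted p = 4.8e-07), and the call held in all 14 alternatives. These levels rest on 2024 to 2568 MYC reads per lncSLCC1 siRNA library and 3396 to 3756 per control siRNA library.

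By the shape of its profile over the 6 libraries, centred on the control mean in log2 CPM, MYC was most like TUBB6 (a tubulin gene), with a root mean square distance of 0.023. The next nearest were SCAMP2, PER1, FSCN1 and CDT1, at 0.0297 to 0.0402. These are the 5 nearest genes with a mean of at least 20 CPM.

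MAX, the shared partner of MYC, the antagonists and MGA, had 44.2, 39.7 and 39.7 CPM in lncSLCC1 siRNA libraries. In control siRNA libraries it had 52.3, 51.3 and 41.5 CPM. The groups overlapped through control replicate 3, and MAX was not called (log2 fold change -0.23, SE 0.112, 95% confidence interval -0.48 to 0.02, edgeR adjusted p = 0.188). It was -0.17 without control replicate 1 (adjusted p = 0.144) and -0.33 without control replicate 3, where it passed (adjusted p = 0.034). Per unit of length, MYC stood at 5.14, 5.27 and 5.29 times the RPKM of MAX in lncSLCC1 siRNA libraries and at 6.58, 6.36 and 7.10 times in control siRNA libraries. The ranges of this ratio did not overlap.

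MXD4, an antagonist linked in textbooks to differentiating cells, was the member with the largest difference. It had 40.4, 42.8 and 46.8 CPM in lncSLCC1 siRNA libraries, against 26.9, 19.9 and 20.7 CPM in control siRNA libraries. All lncSLCC1 siRNA libraries lay above all controls, the highest of which was control replicate 1. The mean was 43.3 ± 3.26 CPM in lncSLCC1 siRNA libraries and 22.5 ± 3.84 CPM in control siRNA libraries (SD, n = 3 each), a fold of 1.93. On the log2 scale the difference was 0.95 (SE 0.131; 95% interval 0.65 to 1.24; edgeR adjusted p = 0.00253), and the two-sided exact permutation p was 0.1, again the lowest possible. Without control replicate 1 the log2 fold change was 1.09 (adjusted p = 3.08e-09), and the call held in all 14 alternatives. MXD4 ranked 321 of 15242 tested genes by size of rise. Its longest transcript has 64.0% GC, the highest of the members. With offsets for GC content and length its log2 fold change was 0.97. The window that starts this gene is the first of those printed above, with the E-box near its upstream end.

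The other antagonists did not pass the test. MXD1, which is best known for rising when blood and epithelial cells differentiate, had 30.3 to 32.3 CPM in lncSLCC1 siRNA libraries, against 23.9 to 30.9 CPM in control siRNA libraries (log2 fold change 0.14, 95% confidence interval -0.12 to 0.41, edgeR adjusted p = 0.434). The value was 0.03 without control replicate 1. MXD3, the family member most tied to dividing cells, had 11.7 to 13.15 CPM in lncSLCC1 siRNA libraries and 12.3 to 16.4 CPM in control siRNA libraries (log2 fold change -0.24, 95% confidence interval -0.54 to 0.07, edgeR adjusted p = 0.258). It was at -0.15 without control replicate 1 and at -0.35 without control replicate 3 (edgeR adjusted p = 0.061).

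MXI1 had 15.2 to 15.9 CPM in lncSLCC1 siRNA libraries, inside the 14.2 to 17.6 CPM of control siRNA libraries (log2 fold change -0.02, 95% confidence interval -0.28 to 0.25, edgeR adjusted p = 0.943), and its sign turned with library totals (0.05). MNT, the broadly expressed antagonist, had 41.5 to 47.5 CPM in lncSLCC1 siRNA libraries and 47.1 to 49.8 CPM in control siRNA libraries (log2 fold change -0.08, 95% confidence interval -0.29 to 0.12, edgeR adjusted p = 0.579). MXI1 was at -0.09 and MNT at -0.10 without control replicate 1. The intervals of these 4 genes end below the 0.65 at which that of MXD4 begins; the differences between the genes were not tested.

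**Figure D2:**
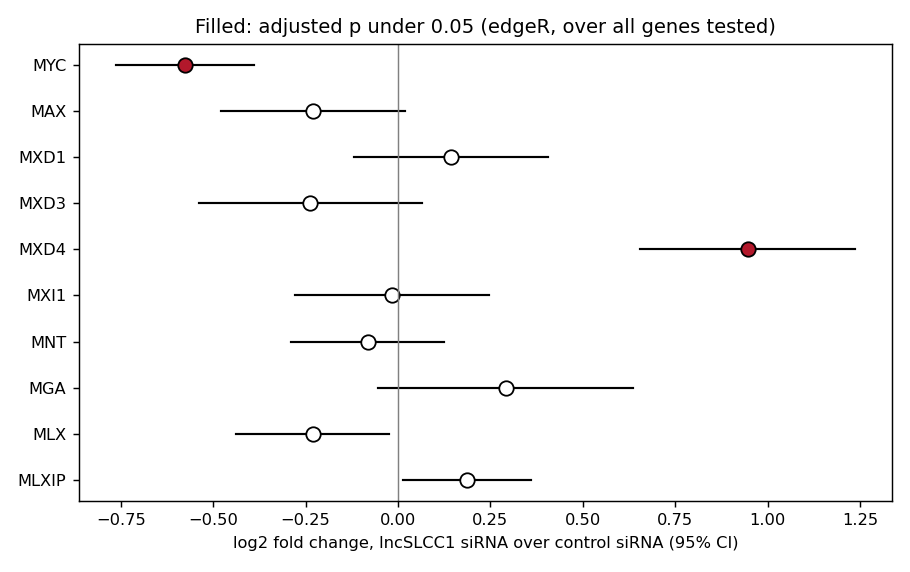
Log2 fold change of each member, lncSLCC1 siRNA over control siRNA, with its 95% confidence interval from edgeR; filled points have an adjusted p under 0.05 over all genes tested. MYC at -0.58 and MXD4 at 0.95 are the filled points, and the intervals of MLX and MLXIP lie on opposite sides of 0 without passing the adjusted threshold.

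Read ratios within a library do not depend on library scaling. There were 23.7, 27.3 and 29.7 MXD4 reads per 100 MYC reads in lncSLCC1 siRNA libraries, against 10.4, 8.15 and 9.36 in control siRNA libraries. The ranges did not overlap. Among the summed reads of the 5 antagonists MXD1, MXD3, MXD4, MXI1 and MNT, MXD4 took 27.6%, 28.6% and 31.6% in lncSLCC1 siRNA libraries and 20.9%, 15.3% and 16.0% in control siRNA libraries. Per unit of length, MYC stood at 2.07, 1.85 and 1.88 times the summed RPKM of these 5 genes in lncSLCC1 siRNA libraries and at 3.44, 3.26 and 3.06 times in control siRNA libraries. Each of these ratios held all lncSLCC1 siRNA libraries on one side of all controls; MYC, MXD4 or both enter each of them, so they are not separate evidence.

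**Figure D3:**
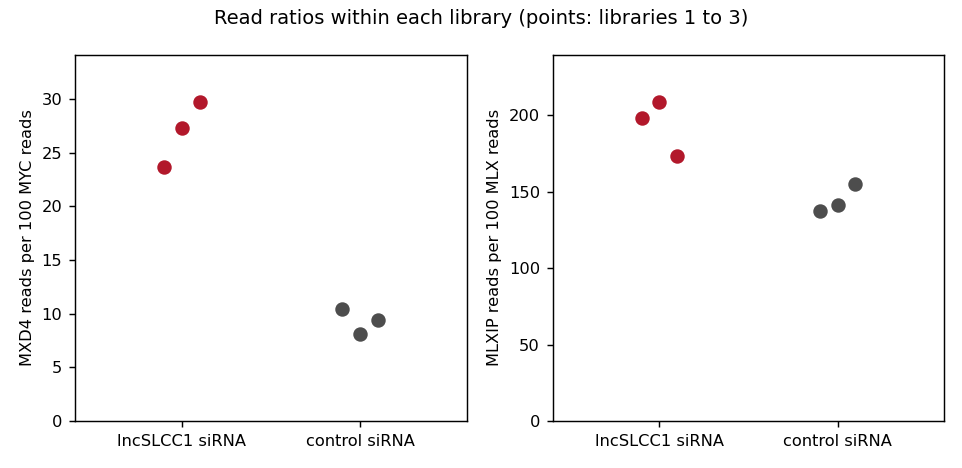
MXD4 reads per 100 MYC reads (left panel) and MLXIP reads per 100 MLX reads (right panel) in each library, with lncSLCC1 siRNA left of control siRNA. Points are libraries; MXD4 per 100 MYC reads ran from 23.7 to 29.7 after lncSLCC1 siRNA and from 8.15 to 10.4 after control siRNA.

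MGA, the largest member and the one that carries MAX into PRC1.6, had 48.6, 52.2 and 50.2 CPM in lncSLCC1 siRNA libraries, against 30.8, 41.9 and 50.6 CPM in control siRNA libraries. Control replicate 3 lay inside the lncSLCC1 siRNA range and control replicate 1 far below it. MGA was not called (log2 fold change 0.29, SE 0.155, 95% confidence interval -0.05 to 0.64, edgeR adjusted p = 0.225). It was 0.12 without control replicate 1 (adjusted p = 0.275), 0.46 without control replicate 3, where it passed (adjusted p = 0.0296), and 0.13 with GC content and length offsets. MGA has the longest transcript of the members, 14.4 kb, and the lowest GC content, 42.0%.

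In the second branch, MLX, the partner of MLXIP, had 75.4, 73.2 and 82.7 CPM in lncSLCC1 siRNA libraries, against 99.4, 86.7 and 85.4 CPM in control siRNA libraries. MLXIP, which moves to the nucleus when glucose 6-phosphate rises, had 149.3, 152.7 and 143.3 CPM in lncSLCC1 siRNA libraries, against 136.4, 122.3 and 132.4 CPM in control siRNA libraries. The groups did not overlap for either gene, with MLX lower and MLXIP higher. Neither passed the adjusted threshold (edgeR log2 fold change -0.23, 95% confidence interval -0.44 to -0.02, adjusted p = 0.122 for MLX; 0.19, 0.01 to 0.36 and 0.131 for MLXIP). MLXIP passed without control replicate 1 (0.22, adjusted p = 0.00771) and with library totals (0.26, adjusted p = 0.0393), and both passed with GC content and length offsets (MLXIP 0.15, adjusted p = 0.0223; MLX -0.17, adjusted p = 0.0405). MLX was at -0.16 (adjusted p = 0.0674) without control replicate 1. There were 198.1, 208.5 and 173.3 MLXIP reads per 100 MLX reads in lncSLCC1 siRNA libraries, against 137.2, 141.1 and 155 in control siRNA libraries, without overlap. Because MLXIP and MLX were already separated in opposite directions, their ratio had to separate too and is not separate evidence.

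Some members share exons with other genes in GENCODE release 29, and with no strand setting stated, reads of the 2 strands cannot be told apart. PSMC3IP, which overlaps MLX on the opposite strand, was also lower, at 17.3 ± 0.401 CPM in lncSLCC1 siRNA libraries and 21.8 ± 0.507 CPM in control siRNA libraries (SD, n = 3 each; edgeR adjusted p = 0.0488). PRELID1, opposite MXD3, and SNRNP27, beside MXD1 on its strand, did not pass (edgeR adjusted p = 0.124 and 0.125). No other gene's exon overlapped MYC in that annotation, and MXD4 overlapped a miRNA gene only.

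Compared per unit of length, as RPKM over the longest transcript of the basic annotation, MYC was the most abundant member in both groups. It stood at 68.3 ± 3.29 RPKM in lncSLCC1 siRNA libraries and 101.9 ± 7.89 RPKM in control siRNA libraries (SD, n = 3 each, as for all levels here). MLX followed, at 29.8 ± 1.91 RPKM in lncSLCC1 siRNA libraries and 35.0 ± 2.99 RPKM in control siRNA libraries. MLXIP and MAX came next, at 17.6 ± 0.568 and 13.1 ± 0.832 RPKM in lncSLCC1 siRNA libraries; in control siRNA libraries they stood at 15.5 ± 0.859 and 15.3 ± 1.88 RPKM and did not differ beyond their spread.

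Among the antagonists, MXD4 was at 10.7 ± 0.803 RPKM in lncSLCC1 siRNA libraries and 5.55 ± 0.946 RPKM in control siRNA libraries. MNT was at 9.09 ± 0.675 RPKM in lncSLCC1 siRNA libraries and 9.63 ± 0.300 RPKM in control siRNA libraries. MXD4 was thus above MNT in the mean of the lncSLCC1 siRNA libraries and below it in that of the controls. MXD3, MXD1 and MXI1 lay between 4.50 and 5.61 RPKM in lncSLCC1 siRNA libraries and between 4.55 and 6.47 RPKM in control siRNA libraries. MXD1 and MXD3 lay within each other's spread after lncSLCC1 siRNA. In the controls, in the order MXD3, MXD4, MXD1 and MXI1, the ranges of mean ± SD overlapped between neighbours. On this length MGA was lowest, at 3.49 ± 0.125 RPKM in lncSLCC1 siRNA libraries and 2.85 ± 0.685 RPKM in control siRNA libraries. The transcripts used in these cells are not known. With the union of all exons as length, an alternative chosen after seeing the data, MXD3 at 2.41 RPKM lay below MGA at 2.85 RPKM in lncSLCC1 siRNA libraries. With that length in control siRNA libraries, MAX at 10.9 RPKM came before MLXIP at 9.38 RPKM. The antagonists there took the order MNT at 5.51, MXD1 at 4.47, MXI1 at 3.43, MXD4 at 3.19 and MXD3 at 2.85 RPKM, above MGA at 2.33 RPKM.

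**Figure D4:**
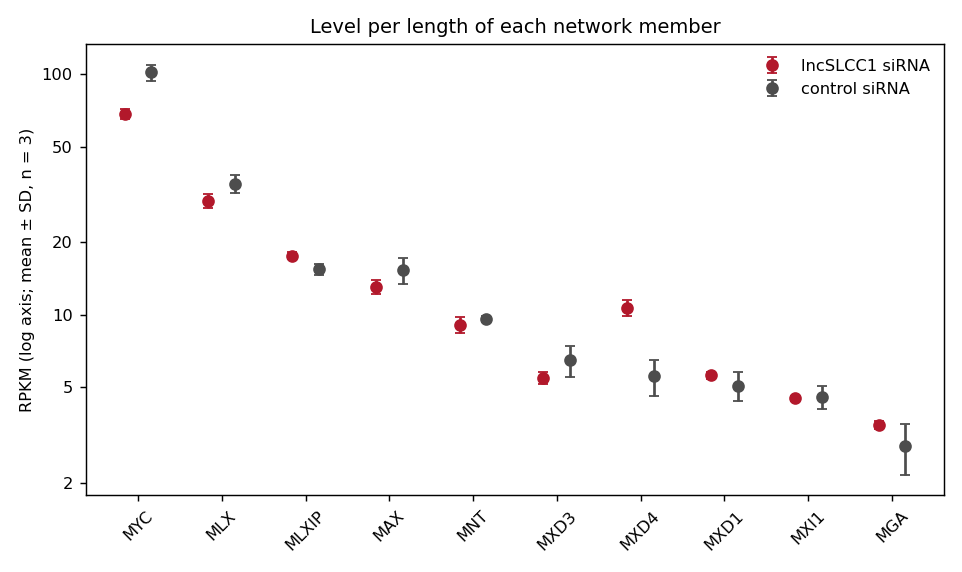
Mean ± SD (n = 3) of RPKM for each member on a log axis, with lncSLCC1 siRNA left of control siRNA at each gene and genes ordered by their control level. MYC is highest in both groups, and MXD4 is at 10.7 RPKM after lncSLCC1 siRNA against 5.55 RPKM after control siRNA.

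Genes known to act with these factors were read from 10 lists, and each list is described by its counts beside the 6.46% higher and 7.39% lower of all tested genes, whose median log2 fold change was 0.007. The MYC coactivators and partners list (the scaffold TRRAP, the acetyltransferase EP300 and others) had 0 of 15 members higher and 0 lower by edgeR, DESeq2 or limma-voom (median -0.06). An unadjusted edgeR p under 0.05 was found for 4819 of all 15242 genes tested. Of the 15 coactivators and partners, 4 had one: WDR5 (log2 fold change -0.27), CDK9 (0.29), RUVBL1 (-0.29) and ACTL6A (-0.22, named after its value was seen). Without control replicate 1 the count was 1 higher and 3 lower, the same as without control replicate 3. Genes of MYC protein turnover had 1 of 17 higher and 3 lower (median -0.11), with 9 under an unadjusted p of 0.05. PLK1, AURKA and USP36, whose products are known to stabilise MYC proteins or slow their loss, fell by 0.52 (SE 0.084), 0.41 (SE 0.076) and 0.37 (SE 0.076) on the log2 scale. The riser was GSK3B, at 0.37, the kinase that marks MYC for degradation; it is outside the naming rule and is named, after its value was seen, as the 1 gene called higher. Of the 3 fallers PLK1 kept its call in all 14 alternatives. The number lower was 6 without control replicate 1 or 3, 2 without control replicate 2 and 1 without each of the lncSLCC1 siRNA replicates; GSK3B was lost without control replicate 2 or any 1 of the lncSLCC1 siRNA replicates. FBXW7, the ubiquitin ligase subunit that reads this mark, had 35.2 ± 1.98 CPM in lncSLCC1 siRNA libraries and 28.5 ± 3.66 CPM in control siRNA libraries. It did not pass (edgeR adjusted p = 0.105). In the same list GSK3A at -0.26 (edgeR adjusted p = 0.0861) and SKP2 at -0.26 (0.0678) lay below 0 and did not pass. FBXW7, GSK3A and SKP2 were chosen after their values were seen. Of the 17 genes, 6 had a log2 fold change above 0 and 11 below.

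The SIN3 corepressor list had 1 of 17 members higher and 0 lower, with a median of 0.005. The riser was ARID4A at 0.65 (SE 0.189, edgeR adjusted p = 0.0471), while RBBP7 at -0.22 and SAP18 at -0.39 did not pass. With 3 of the 17 under an unadjusted p of 0.05, DESeq2 called 1 higher and 1 lower and limma-voom 1 higher and 0 lower. ARID4A lost its call with library totals (adjusted p = 0.0509), with DESeq2 size factors (0.0503) and without control replicate 2 or any 1 of the lncSLCC1 siRNA replicates; without control replicate 1 the list had 2 higher and 3 lower. Of the other subunits of MGA's complex, PRC1.6, 1 of 13 was lower and 0 higher, with 2 under an unadjusted p of 0.05, and by DESeq2 and limma-voom also 1 lower and 0 higher (median -0.01). The faller was E2F6, a DNA-binding subunit of the complex, at -0.42 (SE 0.116, edgeR adjusted p = 0.039). It lost its call in 7 alternatives, among them library totals (adjusted p = 0.0761) and leaving out any library but control replicate 1. Leaving out that control gave 4 lower and 1 higher in this list. Of 13 germline genes silenced by PRC1.6, 5 had enough reads to be tested, with 1 higher and 0 lower. Their median log2 fold change was 0.285, with 4 above 0 and 2 under an unadjusted edgeR p of 0.05. Of these, TDRD1, TAF7L and SMC1B had group means of only 0.559 to 1.31 CPM. STAG3, a meiotic cohesin gene, rose by 0.67 (SE 0.138), to 8.82 ± 0.840 CPM in lncSLCC1 siRNA libraries against 5.53 ± 0.303 CPM in control siRNA libraries (SD, n = 3 each; edgeR adjusted p = 0.0132), and the other 4 did not pass. STAG3 lost its call without control replicate 2 or any 1 of the lncSLCC1 siRNA replicates (adjusted p = 0.0525 to 0.0839), and without control replicate 1 the list had 2 higher.

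Genes activated by MYC were lower in number, with 17 of 32 tested members lower (53.1%) and 1 higher (3.13%), at a median of -0.34. Of the 32, 23 had an unadjusted p under 0.05. CDK4, a G1 cyclin-dependent kinase gene, had 80.8 ± 4.54 CPM in lncSLCC1 siRNA libraries and 172 ± 22.3 CPM in control siRNA libraries (SD, n = 3 each; log2 fold change -1.09, SE 0.104, edgeR adjusted p = 0.000364). SHMT2, of mitochondrial one-carbon metabolism, fell by 0.78 (SE 0.090). The riser was NOLC1, a nucleolar protein gene, at 1.04 (SE 0.069). The remaining 14 tested members, such as the nucleolar genes NCL at -0.19 and NPM1 at -0.09 (chosen after their values were seen), did not pass. CDK4, SHMT2 and NOLC1 kept their calls in all 14 alternatives. Without control replicate 1 the counts were 24 lower and 2 higher, where 2431 and 2112 of all 15646 tested genes were called. They were 8 and 1 without control replicate 2, where 352 and 264 of 15607 were. They were 6 and 1 without each of lncSLCC1 siRNA replicates 1, 2 and 3. In those settings 244 to 318 of all genes were lower and 213 to 272 higher.

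Genes described as repressed by MYC moved both ways, with 2 of 10 higher and 4 lower (median -0.20). Of the 10, 7 had an unadjusted p under 0.05. SESN3, a sestrin gene, rose by 1.43 (SE 0.215) and the growth factor receptor gene PDGFRB by 1.28 (SE 0.363), to 1.32 ± 0.394 CPM in lncSLCC1 siRNA libraries against 0.533 ± 0.159 CPM in control siRNA libraries (SD, n = 3 each); DESeq2 and limma-voom each called 1 gene of this list higher. CDKN1A, which encodes the cell cycle inhibitor p21 and is the classical gene of this kind, fell by 0.78 (SE 0.128), to 10.9 ± 0.664 CPM in lncSLCC1 siRNA libraries against 18.6 ± 2.28 CPM in control siRNA libraries (SD, n = 3 each; edgeR adjusted p = 0.00549). The DNA damage genes GADD45A and GADD45B fell by 0.62 (SE 0.130) and 0.59 (SE 0.127), and CDKN1C, another inhibitor gene, by 0.45 (SE 0.119). PDGFRB, GADD45B and CDKN1C are outside the naming rule and were chosen after their values were seen. Without control replicate 2 the list had 1 higher and 1 lower, without lncSLCC1 siRNA replicate 1 it had 1 and 2, and without replicate 2 or 3 it had 1 and 1. It had 3 and 5 without control replicate 1. SESN3 and CDKN1A kept their calls in all 14 alternatives.

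Of the genes reported as targets of the MLXIP and MLX pair, 5 of 6 were lower and 0 higher, at a median of -0.40, with 5 under an unadjusted p of 0.05. DESeq2 and limma-voom also called 5 lower and 0 higher. TXNIP, the arrestin that restrains glucose uptake and the best known target, had 44.0 ± 0.987 CPM in lncSLCC1 siRNA libraries and 117.7 ± 8.85 CPM in control siRNA libraries (SD, n = 3 each; log2 fold change -1.42, SE 0.088, edgeR adjusted p = 5.12e-05). ARRDC4, its paralogue, had 22.6 ± 1.48 CPM in lncSLCC1 siRNA libraries and 42.8 ± 7.26 CPM in control siRNA libraries (log2 fold change -0.92, SE 0.134, edgeR adjusted p = 0.00315). Both genes kept their call in all 14 alternatives, and their windows are the last printed above. KLF10, a transcription factor gene whose call was lost without any 1 of the lncSLCC1 siRNA replicates (adjusted p = 0.0523 to 0.0566), fell by 0.45 (SE 0.078), and the glycolysis genes HK2 and LDHA by 0.36 (SE 0.076) and 0.33 (SE 0.074). PFKFB3, which encodes a regulator of glycolysis, was the gene that did not pass, at 45.04 ± 1.72 CPM in lncSLCC1 siRNA libraries and 45.6 ± 2.13 CPM in control siRNA libraries. HK2, LDHA and PFKFB3 are outside the naming rule and were chosen after their values were seen. LDHA is also counted among the genes activated by MYC. For the pair itself, all lncSLCC1 siRNA libraries lay above all controls for MLXIP and below them for MLX. Neither gene passed the adjusted threshold, as given above, and the part of the pair in these differences was not tested. The list count was 5 lower without control replicate 1 or 3, 3 without control replicate 2, and 2 without each of the lncSLCC1 siRNA replicates. HK2 and LDHA thus lost their calls without control replicate 2 or any 1 of the lncSLCC1 siRNA replicates.

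**Figure D5:**
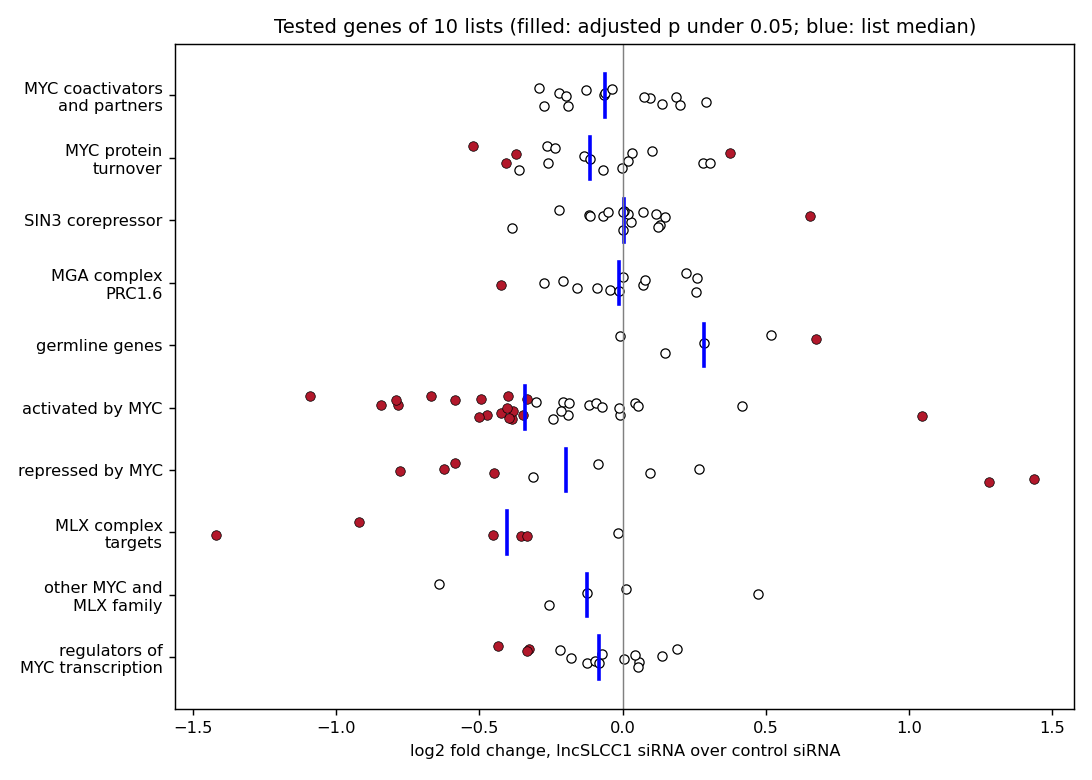
Log2 fold change, lncSLCC1 siRNA over control siRNA, of every tested gene in 10 lists; filled points have an edgeR adjusted p under 0.05 and blue bars mark list medians. The lists activated by MYC and of MLX complex targets lie mostly left of 0 (medians -0.34 and -0.40), and the list repressed by MYC holds filled points on both sides. The lists were chosen with earlier results of these data known.

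The other MYC and MLX family genes were read at lower levels or did not pass. Of 5 tested, 0 were higher and 0 lower by edgeR, DESeq2 or limma-voom, with 2 under an unadjusted p of 0.05. MYCL had 4.78 ± 0.368 CPM in lncSLCC1 siRNA libraries and 3.44 ± 0.790 CPM in control siRNA libraries, and MYCN had 1.03 ± 0.383 CPM in lncSLCC1 siRNA libraries and 1.59 ± 0.176 CPM in control siRNA libraries (SD, n = 3 each). USF2, which binds the same E-box, was at -0.26. Among regulators of MYC transcription, 3 of 15 were lower and 0 higher (median -0.08), with 3 under an unadjusted p of 0.05 and the same counts by DESeq2 and limma-voom. These were FUBP1, which binds an element upstream of MYC, at -0.44 (SE 0.085), the insulator gene CTCF at -0.33 (SE 0.075) and the Wnt factor gene LEF1 at -0.34 (SE 0.082). All 3 lost their call without control replicate 2 or any 1 of the lncSLCC1 siRNA replicates, and LEF1 also with library totals (adjusted p = 0.0503). CTNNB1, which encodes beta-catenin, stood at 461 ± 8.44 CPM in lncSLCC1 siRNA libraries and 448 ± 10.8 CPM in control siRNA libraries and did not pass (log2 fold change 0.04, edgeR adjusted p = 0.71; chosen after its values were seen).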

How the data were processed

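The values the authors deposited are raw counts of reads for every gene symbol. Per the submitters' processing notes, HTSeq and TopHat2 (2.0.11) were used, with builds hg19 and GRCh37. The sources used here give neither the annotation release nor the strand setting. HTSeq's summary lines (no feature 5.42% to 7.58%, ambiguous 8.83% to 10.1%, not unique 12.8% to 13.8% of all lines summed) were left out.

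Groups and replicate numbers came from the titles. edgeR 4.0.16 (R 4.3.3) was fitted to all 6 libraries with TMM sizes, its default expression filter and no covariate, and tested on simulated data first. Each standard error is the log2 fold change divided by the square root of F. Lengths and GC content came from GENCODE release 29 by symbol, found for 89.4% of tested genes. Alternatives were library totals, DESeq2 size factors, other filters, DESeq2 1.42.0, limma-voom (limma 3.58.1), GC content and length offsets, the replicate number as a block, and each library left out. The members and lists were chosen with earlier results of these data known. Named were all members, up to 3 genes with the smallest p per list, and the 5 genes nearest to MYC, with exceptions marked; some that the rule selects are given by count only.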

Additional observations from a re-analysis of the deposited data

How the results depend on the processing

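MYC and MXD4 kept their direction and call in all 14 alternatives. Members called higher were 2 with library totals and 2 with GC content and length offsets, where those called lower were also 2; leaving out 1 library gave 1 to 2 higher and 1 to 2 lower. MXI1, near 0, changed sign with library totals (0.052), and ran from -0.088 to 0.068 as single libraries were left out; the cause was not tested. Over all genes, 984 were higher and 1126 lower; with no low-count filter 1600 were higher, and with GC content and length offsets 2174 were higher and 2439 lower. Leaving out 1 library gave 213 (without lncSLCC1 siRNA replicate 3) to 2112 (without control replicate 1) higher and 244 to 2431 lower in the same settings. With the replicate block MYC was at -0.575 and MXD4 at 0.954, and no call of a member changed. Deviations of same-numbered libraries from their group means had correlations of 0.094, 0.001 and -0.016. The GC content and length trends among the controls could hide a shared deviation. These values therefore cannot decide whether equal numbers mark pairs. Depth limits MXD3 and MXI1 most, at 160 to 271 reads per library.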
